A study of Ictalurus punctatus with 54 samples.

Results

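Gills of channel catfish (Ictalurus punctatus) fingerlings challenged with Flavobacterium immediately after copper sulfate (CuSO4) exposure were compared at 4 h (Cu0h-4h, 6 fish) and 1 h (Cu0h-1h, 6 fish) after the challenge, using every transcript of these 12 of the 54 fish sequenced. The groups were taken from the sample labels. The question of the comparison was how gill RNA differed between the later and the earlier sampling of the immediate challenge. All 12 fish had received copper and bacteria, so the comparison holds no fish without either. No unchallenged fish were analysed at 1 or 4 h, and time since copper, time since challenge and time of day cannot be told apart in it. The fish set beside them were challenged 24 h later and sampled at 4 h (Cu24h-4h) and 1 h (Cu24h-1h), or challenged at once and sampled at 24 h (Cu0h-24h), and levels of a few transcripts are also given for unchallenged fish sampled at once after copper (Cu0h) or at the end of the 24 h (Cu24h) and for untreated controls, with 6 fish in every group. The paper describes the 24 h as recovery, whereas the sample labels word it as exposure. The labels put the copper concentration at 2.1 mg/mL and call the bacterium F. columnare. The unit in the paper is mg/L, and its name for the bacterium is F. covae. Fish were kept in replicate tanks, but no source used here ties a fish to its tank, so p-values treat fish as independent.

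The gill is the fish's organ of gas exchange and ion balance, and a mucosal surface where water meets epithelium, mucous cells, ionocytes and resident immune cells. Columnaris disease begins on such surfaces, where the bacterium attaches and damages skin and gill. Copper sulfate is used in ponds against parasites, algae and external bacteria, and dissolved copper is itself toxic to gill epithelium and disturbs ion uptake.

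The authors deposited an estimated count per Ensembl transcript. Sums of these counts per fish lie far below the number of read pairs per sample that the paper states. No source used here explains the gap, so depth here means deposited counts. Totals were 672284 to 1093928 per fish in Cu0h-4h (median 943998) and 665745 to 1128932 in Cu0h-1h (median 853693). They were lower in the later challenge, with 554741 to 865300 in Cu24h-4h (median 754767) and 352013 to 741727 in Cu24h-1h (median 541036). The RefSeq table used here matched 0 of the 37586 transcripts listed to a gene. No gene, pathway or cell type is therefore named, the gill label could not be checked against markers, and no sequence is shown.

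A single fish of each group stood apart from the rest. Cu0h-4h replicate 4 had 13342 transcripts detected (at least 1 count) when every library was thinned to 352013 counts, and the other 5 fish of Cu0h-4h had 15963 to 17259. Its log2 profile (CPM plus 1, where CPM is a count relative to its library's scaled total) had a mean correlation of 0.806 with the rest of its group, where the next lowest fish had 0.848. Cu0h-1h replicate 1 had a mean correlation of 0.81 with its group, where the next lowest had 0.839, and 5.65% of its counts fell on a single transcript, against at most 3.06% in the other 5 fish of Cu0h-1h. Some results below are given with and without these fish, and where no such value is given both fish are included. Low numbers detected at equal depth also occurred in other groups. Cu0h-24h replicate 6 had 13621, and Cu0h replicates 1 to 4 had 12529 to 13901, where replicates 5 and 6 had 17918 and 17970. Cu24h replicates 1 and 3 had 11302 and 12917, where replicates 2, 4, 5 and 6 had 17317 to 18841.

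**Figure D1:**
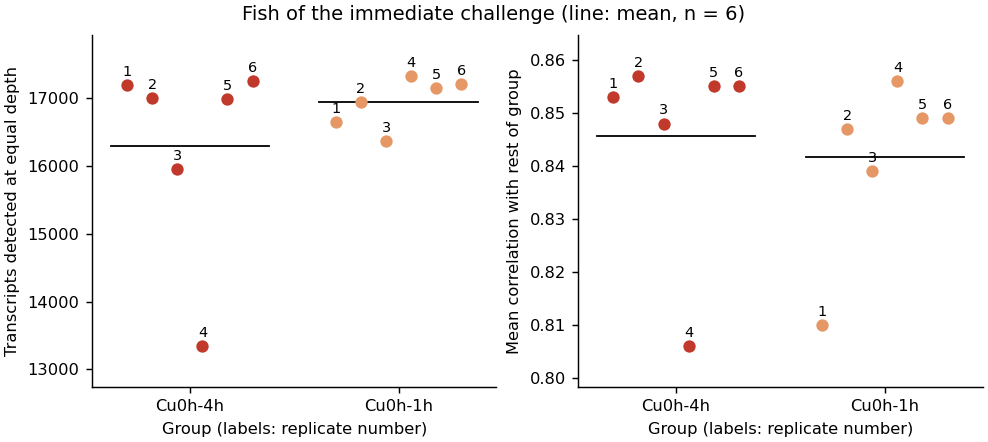
Transcripts detected at equal depth (left, number at 352013 counts) and mean correlation of each fish's log2(CPM + 1) values with the rest of its group (right, no unit) for 6 Cu0h-4h and 6 Cu0h-1h fish, numbered by replicate, with a line at the group mean. Cu0h-4h replicate 4 lies lowest in both panels, at 13342 transcripts and 0.806, and Cu0h-1h replicate 1 lies at 0.81 in the right panel. Neither vertical axis starts at 0.

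The numbers of transcripts detected did not separate the groups. At equal depth the 6 Cu0h-4h fish had 13342 to 17259 transcripts (mean 16292) and the 6 Cu0h-1h fish 16371 to 17333 (mean 16945), a difference of -653 (exact two-sided permutation p = 0.405). Without both fish that stood apart the difference was -121 (exact permutation p = 0.635). The 100 most abundant transcripts of each fish took 34% of the counts on average in Cu0h-4h and 32.8% in Cu0h-1h, a difference of 1.22 percentage points (exact permutation p = 0.535). That sign rested on Cu0h-4h replicate 4, since without it the difference was -0.0233 points (exact permutation p = 0.991).

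Fish of the same time resembled each other about as closely as fish of different times. Pairs of fish correlated at 0.846 on average within Cu0h-4h and at 0.842 within Cu0h-1h, and pairs made of a fish from each group also averaged 0.842. Without both fish that stood apart the means were 0.866 within Cu0h-4h, 0.857 within Cu0h-1h and 0.859 between the groups. The smallest chi-square per transcript over the 30 pairs of fish of the same group was 6.31. No library of Cu0h-4h or Cu0h-1h was thus a copy of another of its own group within sampling noise. Pairs across groups were not checked in this way.

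No transcript passed the test for a difference between 4 h and 1 h. In edgeR's quasi-likelihood test, with FDRs after Benjamini and Hochberg, 0 DEGs (differentially expressed transcripts, FDR below 0.05 and log2 fold change above 1 in size) were called among 8567 transcripts tested, which is 0%, and 0 had an FDR below 0.05 at any fold change. The smallest FDR was 0.0821, and 1 transcript had an FDR below 0.1. At an unadjusted p below 0.05 there were 754 transcripts (8.8%), 367 of them higher (4.28%) and 387 lower (4.52%) at 4 h. The values of single transcripts in these gills reflect all cells together, so a change in the number of cells of a type and in RNA per cell cannot be told apart.

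The count of DEGs differed between tools and settings. DESeq2's Wald test called 25 (0.292% of 8567), of which 17 were upregulated and 8 downregulated. The edgeR fit of all 9 groups called 69 (0.544% of 12680), with 23 upregulated and 46 downregulated, and the fit with no low-count filter called 63 (0.212% of 29707), with 21 upregulated and 42 downregulated. The fit of all 9 groups differs from that of the 12 fish both in the libraries that set the error and in the transcripts that pass the filter, and 28 of its 69 calls, like 26 of the 63 without a filter, were among the 8567. In the fit of all 9 groups, 31 of the 69 had more than 50% of their counts over the 12 fish in a single fish, as had 31 of the 63 without a filter and 3 of the 25 of DESeq2. Both DESeq2 and the fit of all 9 groups called 12 transcripts, 7 of them upregulated and 5 downregulated. Limma-voom with library weights called 1 (0.0117%), ENSIPUT00000013803. Leaving out 1 fish at a time gave 0 to 2 DEGs, with 2 without Cu0h-1h replicate 1 or without Cu0h-4h replicate 5, 1 without Cu0h-4h replicate 4 or 6, and 0 without each of the other 8 fish. Without both fish that stood apart there were 5 (0.056% of 8936), of which 2 were upregulated and 3 downregulated.

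**Figure D2:**
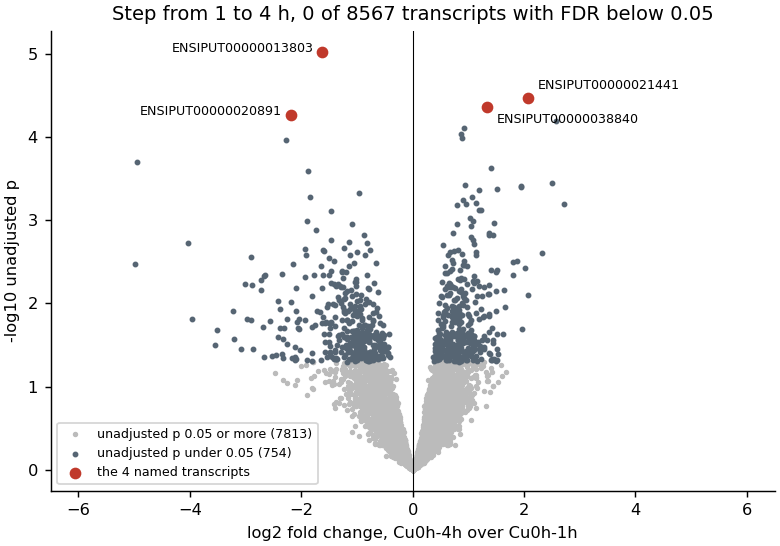
Fold change (horizontal axis, log2, Cu0h-4h over Cu0h-1h) against the unadjusted p of the edgeR test (vertical axis, -log10) for the 8567 transcripts tested, with 754 dark points at p below 0.05 and the 4 named transcripts in red. No transcript has an FDR below 0.05, and the far left of the plot extends to a log2 fold change of -4.98, whereas the far right ends at 2.72.

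The estimated differences were small for most transcripts and imprecise for many. Across the 8567 transcripts the median log2 fold change was -0.02, the middle 50% ran from -0.34 to 0.27, and the 1% and 99% points lay at -1.63 and 1.19. A log2 fold change above 1 in size was estimated for 503 transcripts (5.87%), 171 of them above 1 and 332 below -1. The median standard error was 0.38, and an approximate 95% interval lay wholly between -1 and 1 for 2863 transcripts (33.4%). For the other 5704 a difference of more than 1 on the log2 scale was not excluded at this number of fish and this depth. The intervals used 10 residual degrees of freedom, without those the edgeR test borrows across transcripts, so they can be too wide. The biological coefficient of variation between fish was 0.505.

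Precision and the share of low p-values both followed abundance. In the most abundant 25% of the tested transcripts (73.9 to 28857 CPM) the median standard error was 0.26 and 272 transcripts (12.7%) had an unadjusted p below 0.05, of which 173 were higher and 99 lower at 4 h. The interval lay between -1 and 1 for 1462 of these 2142. In the least abundant 25% (10.3 to 22.2 CPM) the median standard error was 0.49 and 133 transcripts (6.21%) had such a p, of which 55 were higher and 78 lower. There the interval lay between -1 and 1 for 129 of 2141. The direction of the low p-values thus differed between abundant and scarce transcripts, and this contrast was not tested.

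The spread between fish was lower without the fish that stood apart. The median SD of log2 CPM per transcript was 0.66 over the 6 Cu0h-4h fish and 0.63 over the 6 Cu0h-1h fish. Without replicate 4 it was 0.52 in Cu0h-4h, and without replicate 1 it was 0.54 in Cu0h-1h. Leaving out the fish least like its group tends to lower this SD in any case, and no other fish was left out for comparison.

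Groups without overlap were few, but more frequent than exchangeable fish would give. With 6 against 6 fish, no overlap has the smallest p of the exact permutation test, 0.00216. That fraction of transcripts would be without overlap if fish were exchangeable between the times, which is below the observed 0.805%. The transcripts share the same fish, and this contrast was not tested. For 69 transcripts (0.805% of 8567) the 6 Cu0h-4h and 6 Cu0h-1h fish did not overlap in CPM, 42 of them higher (0.49%) and 27 lower (0.315%) at 4 h.

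Transcripts counted at only 1 of the times were nearly always counted in few fish. Of 29707 transcripts counted in at least 1 of the 12 fish, 2001 were counted only in Cu0h-4h and 2513 only in Cu0h-1h. In Cu0h-4h 1816 of these were seen in 1 or 2 fish and 0 in all 6, whereas in Cu0h-1h 2263 were seen in 1 or 2 fish and 1 in all 6. Their median count over the 6 fish was 2 at either time, and the highest was 60 in Cu0h-4h and 116 in Cu0h-1h. Of the 2513, 772 were counted in Cu0h-1h replicate 1, and of the 2001, 243 were counted in Cu0h-4h replicate 4. At least 4 fish of the time had the transcript for 38 of those seen only in Cu0h-4h and 63 of those seen only in Cu0h-1h. The fit with no low-count filter called 3 transcripts that were at 0 in every fish of a group.

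The transcripts with the smallest p in each direction, 2 higher and 2 lower at 4 h, are described here as transcripts that did not pass the test. ENSIPUT00000021441 had 786, 653, 1421, 362, 233 and 570 CPM in Cu0h-4h replicates 1 to 6, against 171, 117, 238, 118, 166 and 118 CPM in Cu0h-1h replicates 1 to 6. The groups overlapped only through Cu0h-4h replicate 5, which at 233 CPM lay just below Cu0h-1h replicate 3 at 238 CPM. The mean was 671 ± 418 CPM in Cu0h-4h and 155 ± 48.2 CPM in Cu0h-1h (SD, n = 6 each), and the log2 fold change was 2.08 with a standard error of 0.37 (edgeR FDR = 0.104).

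ENSIPUT00000038840 had 282, 199, 252, 367, 230 and 123 CPM in Cu0h-4h replicates 1 to 6, against 94.8, 75.2, 90.1, 109, 86.6 and 104 CPM in Cu0h-1h replicates 1 to 6. The groups did not overlap, and the Cu0h-1h fish lay close together. The mean was 242 ± 81.9 CPM in Cu0h-4h and 93.2 ± 12.2 CPM in Cu0h-1h (SD, n = 6 each), with a log2 fold change of 1.34 and a standard error of 0.24 (edgeR FDR = 0.104). Its highest value, 367 CPM, was in Cu0h-4h replicate 4, the fish that stood apart, and without that fish the log2 fold change was 1.18.

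ENSIPUT00000013803 had the smallest p of all transcripts tested. It had 33.2, 46.4, 42.5, 34.9, 59.2 and 59.3 CPM in Cu0h-4h replicates 1 to 6, against 68, 206, 112, 159, 166 and 125 CPM in Cu0h-1h replicates 1 to 6. The groups did not overlap, and the lowest of the earlier fish was Cu0h-1h replicate 1. The mean was 45.9 ± 11.4 CPM in Cu0h-4h and 139 ± 48.2 CPM in Cu0h-1h (SD, n = 6 each), and the log2 fold change was -1.62 with a standard error of 0.26 (edgeR FDR = 0.0821). Without Cu0h-1h replicate 1 it was -1.74 and was called (edgeR FDR = 0.0108), whereas over all settings tried the adjusted p ran between 9.34e-06 and 0.203.

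ENSIPUT00000020891 had 26.6, 43.8, 45.8, 38.2, 37.2 and 19.5 CPM in Cu0h-4h replicates 1 to 6, against 365, 114, 107, 166, 94.6 and 68.1 CPM in Cu0h-1h replicates 1 to 6. The groups did not overlap, and Cu0h-1h replicate 1 lay far above the other fish of its time. The mean was 35.2 ± 10.2 CPM in Cu0h-4h and 152 ± 109 CPM in Cu0h-1h (SD, n = 6 each), with a log2 fold change of -2.19 and a standard error of 0.40 (edgeR FDR = 0.104). Without Cu0h-1h replicate 1 the log2 fold change was -1.66 (edgeR FDR = 0.0504), and over all settings tried the adjusted p ran between 9.18e-05 and 0.221.

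**Figure D3:**
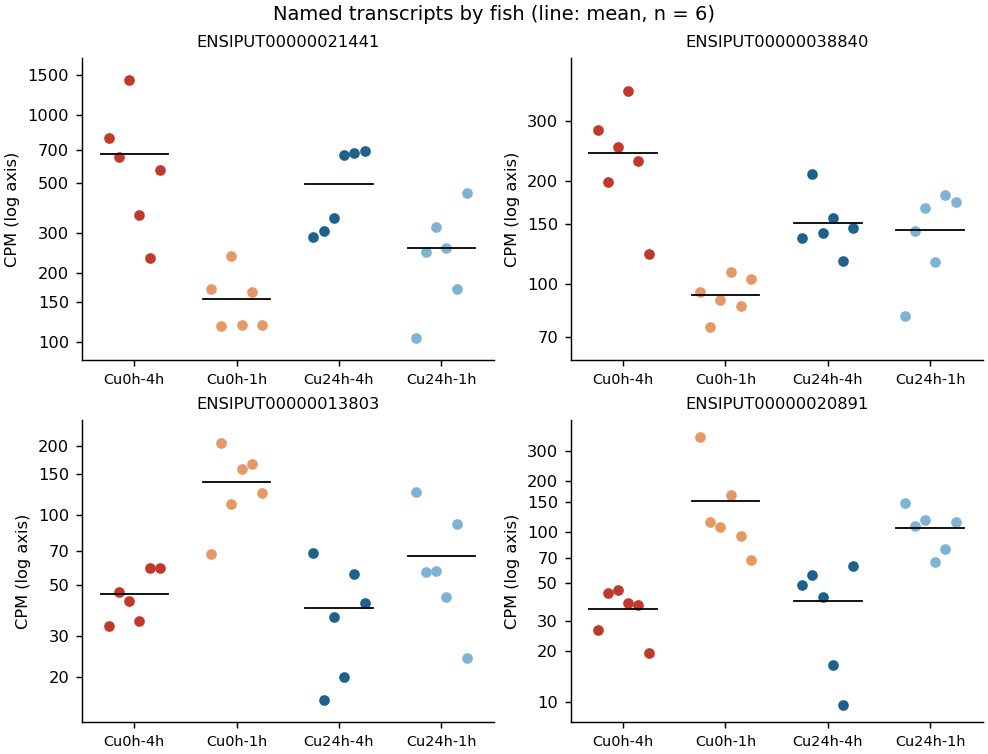
CPM (log axis) of the 4 named transcripts in each fish of Cu0h-4h, Cu0h-1h, Cu24h-4h and Cu24h-1h, with a line at the mean of 6 fish. The Cu0h-4h fish lie above or below the Cu0h-1h fish without overlap in 3 of the 4 panels, the exception being ENSIPUT00000021441, and ENSIPUT00000038840 averaged 151 CPM in Cu24h-4h and 144 CPM in Cu24h-1h.

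The same 4 transcripts were followed to 24 h after the immediate challenge. ENSIPUT00000021441 averaged 155, 671 and 762 CPM at 1, 4 and 24 h, ENSIPUT00000038840 93.2, 242 and 169 CPM, ENSIPUT00000013803 139, 45.9 and 36.1 CPM, and ENSIPUT00000020891 152, 35.2 and 26.7 CPM (n = 6 each). None of the 4 passed the edgeR test in Cu0h-24h against Cu0h-4h, with log2 fold changes of 0.18, -0.52, -0.34 and -0.42 and FDRs of 0.456 or above. Those values share the Cu0h-4h fish with the values at the earlier step. Across the table, Cu0h-24h against Cu0h-4h gave 98 DEGs (1.12% of 8741 tested), 68 upregulated (0.778%) and 30 downregulated (0.343%).

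Set against the levels before the challenge, the 4 transcripts started from different places. In unchallenged Cu0h fish ENSIPUT00000021441 averaged 235 ± 119 CPM and ENSIPUT00000038840 104 ± 54.1 CPM, and in untreated controls they averaged 258 ± 130 and 80.8 ± 25.5 CPM (SD, n = 6 each). ENSIPUT00000013803 averaged 51.2 ± 22.9 CPM in Cu0h and 88.3 ± 25.8 CPM in controls, so its Cu0h-1h mean of 139 CPM was the highest of these groups and its Cu0h-4h mean of 45.9 CPM lay near that of Cu0h. ENSIPUT00000020891 averaged 122 ± 87.2 CPM in Cu0h and 122 ± 37.3 CPM in controls. Cu0h replicates 1 to 4 had totals of 463911 to 553390, and replicates 5 and 6 had 1078334 and 995882. Replicates 1 to 4 had 33.8 to 40.7 CPM of ENSIPUT00000013803, and replicates 5 and 6 had 93.2 and 62.4 CPM. For ENSIPUT00000038840 these were 41.2 to 93.8, and 160 and 179 CPM, and for the others the fish overlapped. The transcripts were chosen by their Cu0h-4h and Cu0h-1h values. These levels are given as a description, with no test.

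The step from 1 to 4 h was then set beside the same step in fish challenged 24 h after copper, which share no fish with it. Cu24h-4h against Cu24h-1h gave 107 DEGs (1.74% of 6150 tested), 45 upregulated (0.732%) and 62 downregulated (1.01%), where the immediate challenge gave 0. The order turned in the edgeR fit of all 9 groups, with 69 DEGs in the immediate and 50 (0.394% of 12680) in the later challenge, of which 44 were up and 6 down. Limma-voom called 1 in the immediate and 39 (0.634% of 6150) in the later challenge, 23 up and 16 down. DESeq2 called 25 in the immediate and 157 in the later challenge, and the fit with no low-count filter called 63 and 479. The older quasi-likelihood method called 0 and 81, and the fit with replicate number as a block 1 and 110. Limma-voom and these fits kept the order of the main fit. The median standard error was 0.37 over the 6150 transcripts of the later challenge and 0.38 over the 8567 of the immediate challenge. These are different sets of transcripts, so the 2 values do not compare precision transcript by transcript. The biological coefficient of variation was 0.438 in the later challenge. Of the 4 named transcripts, ENSIPUT00000020891 was also downregulated there, with 39.2 ± 21.6 CPM in Cu24h-4h and 106 ± 29.4 CPM in Cu24h-1h (SD, n = 6 each) and a log2 fold change of -1.52 (edgeR FDR = 0.0243). The other 3 had log2 fold changes of 0.85 (ENSIPUT00000021441), -0.01 (ENSIPUT00000038840) and -0.84 (ENSIPUT00000013803), with FDRs of 0.175 or above. For ENSIPUT00000038840 the difference between the 2 steps was 1.35 on the log2 scale with an edgeR FDR of 0.0566, and for the other 3 that FDR was 0.308 or above. The 4 were chosen by their p in the immediate step, which is part of this difference, so these FDRs are no independent test.

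Over the 5876 transcripts tested in both steps, log2 fold changes correlated at 0.169 and 50.3% had the same sign. The points share libraries within each step and are not independent, so this is a description.

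Transcripts that rose between 1 and 4 h after the later challenge had fold changes on both sides of 0 after the immediate challenge. Of the 45, 43 were tested in Cu0h-4h against Cu0h-1h, and their median log2 fold change was -0.18, against 2.17 in their own step and -0.02 over all transcripts tested. After the immediate challenge 19 lay above 0 and 24 below, where 48% of all tested lay above and 52% below, and 6 (14%, against 8.8% of all tested) had an unadjusted p below 0.05, 4 of them higher and 2 lower. Their mean log2(CPM + 1) was 5.4 to 6.24 in the 6 Cu0h-4h fish (median 5.64) and 4.42 to 6.38 in the 6 Cu0h-1h fish (median 5.82). It was 6.17 to 6.83 in Cu24h-4h (median 6.58) and 3.78 to 4.42 in Cu24h-1h (median 4.19), which chose the transcripts. Of the Cu0h-1h fish, 5 lay between 5.73 and 6.38, above every Cu24h-1h fish, and replicate 1 lay at 4.42. In unchallenged fish the mean was 4.32 to 5.39 in Cu0h, 3.48 to 4.82 in Cu24h and 4.18 to 4.59 in controls. The 6 Cu0h-4h fish and the same 5 Cu0h-1h fish lay above every unchallenged fish. The level was thus already higher at 1 h in these 5 fish, whereas Cu0h-1h replicate 1 lay within each unchallenged range. This placement was not tested. Without replicate 1 the median log2 fold change was -0.26, with 13 above and 30 below 0, where the median over all transcripts tested was 0. In that fit 10 of the 43 had an unadjusted p below 0.05, where 808 of all 9090 tested had such a p. Without both fish that stood apart the median log2 fold change of the 43 was -0.24, also with 13 above and 30 below 0. Limma-voom gave 15 above and 28 below.

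Transcripts that fell after the later challenge mostly had negative fold changes after the immediate one too. The size of these depended on 1 fish and on the fit. Of the 62, 61 were tested in Cu0h-4h against Cu0h-1h, where their median log2 fold change was -1.92, against -2.17 in their own step. Below 0 were 50 of them, 43 lay below -1, and 30 (49.2%, against 8.8% of all tested) had an unadjusted p below 0.05, 28 of them lower and 2 higher. Their median standard error was 0.86, against 0.38 over all transcripts, and the groups did not overlap for 4 of the 61, against 0.805% of all tested. Without Cu0h-1h replicate 1 the median was -0.31, with 48 of 61 below 0 and 6 at an unadjusted p below 0.05, where 808 of all 9090 tested had such a p. Without both fish that stood apart it was -0.9, with 48 of the 58 tested below 0 and 13 at an unadjusted p below 0.05, where 853 of all 8936 had such a p. Limma-voom with library weights gave a median of -0.55, 49 of 61 below 0 and 5 at an unadjusted p below 0.05 (796 of all 8567). With replicate number as a block the median was -0.79, with 51 below 0 and 4 at such a p (593 of all 8567). DESeq2's Wald test gave a median of -1.86, with 51 below 0 and 23 at such a p (749 of all 8567).

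The mean log2(CPM + 1) of these 61 transcripts was 4.81, 5.91, 4.86, 6.66, 5.57 and 4.7 in Cu0h-4h replicates 1 to 6, against 8.96, 4.34, 6.14, 5.29, 7.4 and 4.52 in Cu0h-1h replicates 1 to 6. The groups overlapped widely, with Cu0h-1h replicates 1 and 5 above every Cu0h-4h fish and replicates 2 and 6 below every Cu0h-4h fish. The range was 4.53 to 5.02 in Cu24h-4h and 5.33 to 7.77 in Cu24h-1h, 4.66 to 7.96 in Cu0h, 5.47 to 7.46 in Cu24h and 5.3 to 7.95 in the untreated controls. The set was thus spread widely from fish to fish also in fish with no bacteria, and the part of this spread in the fall was not tested. The number called down after the later challenge itself depended on the fit, and was 62 of 6150 in the main fit. It was 6 of 12680 in the edgeR fit of all 9 groups and 264 of 29201 with no low-count filter. Of the same 6150, limma-voom called 16 down, the older quasi-likelihood method 49, the fit with replicate number as a block 64 and DESeq2 87.

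**Figure D4:**
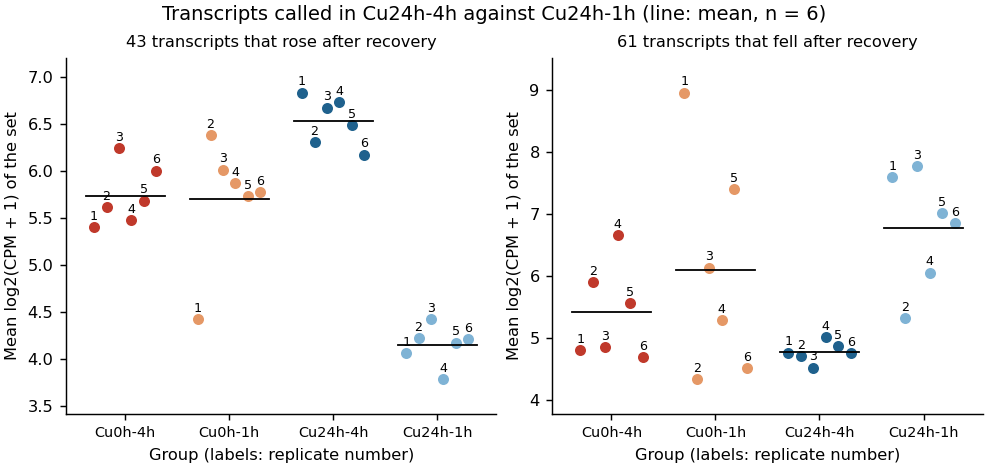
Mean log2(CPM + 1) per fish of the 43 transcripts that rose (left) and the 61 that fell (right) in Cu24h-4h against Cu24h-1h, with numbered replicates and a line at the mean of 6 fish. In the left panel 5 Cu0h-1h fish lie within or above the Cu0h-4h range of 5.4 to 6.24, and in the right panel Cu0h-1h runs from 4.34 to 8.96 around the Cu0h-4h range of 4.7 to 6.66. The Cu24h groups chose the transcripts.

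A direct test found transcripts whose step differed between the schedules. In the edgeR fit of the 24 fish, the step of the immediate challenge minus the step of the later challenge passed FDR and fold thresholds for 37 of 10043 transcripts (0.368%), 13 above 0 (0.129%) and 24 below 0 (0.239%), and 1172 (11.7%) had an unadjusted p below 0.05. Leaving out each of the 24 fish in turn, 15 of the 37 were called in every fit. The count was 73 without Cu0h-1h replicate 1, 22 without Cu24h-1h replicate 5, 23 without Cu24h-1h replicate 3 or Cu24h-4h replicate 1, and 82 (0.781%) without both fish that stood apart. DESeq2 called 83 (0.826%), and 34 of the 37 were among them. With DESeq2's size factors in edgeR all 37 were called again, and with no low-count filter 32. The fit of all 9 groups called 25 of the 37, and a fit with replicate number as a block 22. Limma-voom with library weights called 30, of which 22 were among the 37. The older quasi-likelihood method of edgeR called 20 of the 37.

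For the 24 transcripts below 0, the mean of the later challenge went up between the times and that of the immediate challenge mostly did not. Their difference ran from -6.72 to -1.57 on the log2 scale (median -3.18). The value of -6.72, of ENSIPUT00000032130, rested on a mean of 0.688 CPM in Cu24h-1h, near 0 counts at the depth of that group. Low means also lay behind -4.63 of ENSIPUT00000037508 (0.644 CPM in Cu24h-1h) and -3.42 of ENSIPUT00000030577 (1.54 CPM in Cu24h-1h). The same held for -3.64 of ENSIPUT00000003260 (1.6 CPM in Cu0h-4h). ENSIPUT00000011989, at -1.57, had 72.9 CPM in Cu24h-1h. In the immediate challenge 21 of 24 had a lower mean at 4 h than at 1 h, in the later challenge all 24 had a higher one, and all 24 were higher in Cu0h-1h than in Cu24h-1h. Median levels over the 24 were 34.9 CPM in Cu0h-4h and 47.2 CPM in Cu0h-1h, and 55 CPM in Cu24h-4h and 11.6 CPM in Cu24h-1h. Their mean log2(CPM + 1) was 4.5 to 5.49 in Cu0h-4h and 4.82 to 6.34 in Cu0h-1h, overlapping, and 5.76 to 6.11 in Cu24h-4h and 2.86 to 3.63 in Cu24h-1h. At 1 h every Cu0h-1h fish thus lay above every Cu24h-1h fish. In Cu0h-4h against Cu0h-1h, 23 were tested, with a median log2 fold change of -0.67 (range -1.9 to 0.29) and 7 at an unadjusted p below 0.05 (8.8% of all tested had such a p). Of the 18 tested in Cu24h-4h against Cu24h-1h, 15 were DEGs there, against 1.74% of all tested. At 24 h after the immediate challenge the mean was 5.14 to 5.83, in Cu0h 3.99 to 4.88, in Cu24h 3.11 to 4.32 and in controls 3.53 to 4.22. Within Cu0h, replicates 1 to 4 had 4.51 to 4.88, and replicates 5 and 6 had 4.01 and 3.99. Within Cu24h, replicates 1 and 3 had 3.11 and 3.36, and replicates 2, 4, 5 and 6 had 4.05 to 4.32. These fish also differed in the number of transcripts detected at equal depth, and its part in these levels was not tested.

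The 13 transcripts above 0 showed opposite slopes in the 2 schedules. All 13 had a higher mean at 4 h than at 1 h in the immediate challenge and a lower one in the later challenge. The difference was 1.23 to 4.7 on the log2 scale (median 1.88). The value of 4.7, of ENSIPUT00000009074, rested on a mean of 1.94 CPM in Cu24h-4h. That of 3.88, of ENSIPUT00000025853, rested on 2.94 CPM in Cu0h-1h. Both are few counts at the depth of those groups, so these sizes are uncertain. Median levels were 152 CPM in Cu0h-4h and 79.5 CPM in Cu0h-1h, and 69.6 CPM in Cu24h-4h and 149 CPM in Cu24h-1h. The mean log2(CPM + 1) was 6.57 to 7 in Cu0h-4h and 5.58 to 6 in Cu0h-1h, without overlap, and 5.49 to 6.42 in Cu24h-4h and 6.4 to 7.26 in Cu24h-1h, which overlapped narrowly. Of the 12 tested in Cu0h-4h against Cu0h-1h, 11 had an unadjusted p below 0.05, against 8.8% of all tested, with a median log2 fold change of 0.86 (range 0.45 to 2.58). In unchallenged fish the mean was 6.45 to 6.97 in Cu0h, 5.92 to 6.68 in Cu24h and 6.26 to 6.99 in controls. The Cu0h-1h fish thus lay below every Cu0h and control fish but overlapped with Cu24h, and Cu24h-4h overlapped with Cu24h too. Within Cu24h, replicates 1 and 3 had 6.68 and 6.57, and replicates 2, 4, 5 and 6 had 5.92 to 6.23. Since the test of the difference chose these 37 transcripts, their values in the 4 challenged groups describe the calls and add no further test. Where the challenged groups lay against the unchallenged fish was partly set by the same choice and was not tested.

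**Figure D5:**
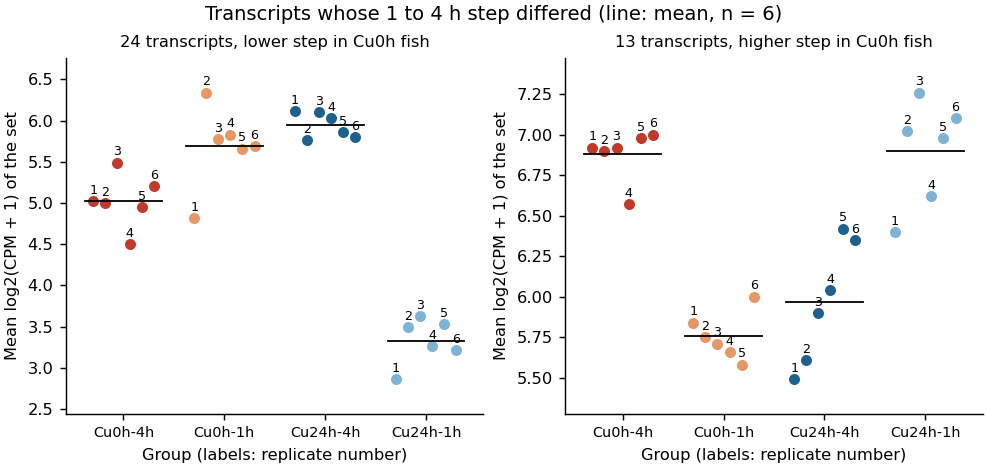
Mean log2(CPM + 1) per fish of the 24 transcripts whose 1 to 4 h step was lower in the immediate challenge (left) and of the 13 whose step was higher (right), in Cu0h-4h, Cu0h-1h, Cu24h-4h and Cu24h-1h, with numbered replicates and a line at the mean of 6 fish. In the left panel Cu24h-1h is lowest, at 2.86 to 3.63, and in the right panel Cu0h-1h, at 5.58 to 6, lies below Cu0h-4h, at 6.57 to 7.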

How the data were processed

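Poly(A) gill RNA of single fish was sequenced. The authors deposited an expected count per transcript (an effective count), estimated and rounded to whole numbers, without normalization, 1 file per fish. Their processing notes list Trim Galore 0.5.0, Bowtie2 2.3.4.3, eXpress 1.5.1 and DESeq2 1.24.0, with no role or order, whereas the paper describes Trimmomatic, STAR, HTSeq and edgeR. No source used here states the genome build behind the deposited counts. How reads were divided between similar transcripts affects each value and could not be checked.

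Files were joined by transcript identifier, since their row order differs. R 4.3.3 and edgeR 4.0.16 were used on the 12 libraries of each comparison, or 24 for the difference between steps. Low counts were removed with filterByExpr (at least 10 counts, total at least 15), TMM scaling was applied, and quasi-likelihood tests were adjusted by Benjamini-Hochberg. Standard errors were approximated from the fold change and F, and intervals took 10 residual degrees of freedom. CPM of single fish used TMM over all 54 fish, and overlap between groups was counted with the TMM scaling of the fit. Values per fish were compared by exact permutation tests. The procedure was tested on simulated data. The alternatives tried were a DESeq2 1.42.0 Wald test, its size factors in edgeR, no filter, all 9 groups, the older method, FDR alone, a replicate block, each fish left out, other detection and abundance limits, and, chosen after seeing the data, limma-voom (limma 3.58.1) and omission of both fish that stood apart.

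Named transcripts would have been DEGs without overlap averaging at least 50 normalized counts. With 0 DEGs, the rule took the 2 smallest p in each direction. The comparison, lists and alternatives were chosen with earlier results of these data known.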

Additional observations from a re-analysis of the deposited data

Results flagged for a closer look

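Of 26 checks of single fish against the rest of their group, 7 marked a fish far from the others. For independent, normally spread values chance marks about 1 in 20. The checks reused the same fish, and some used transcripts chosen from these data, so that rate is no measure of chance here. In Cu0h-4h all 3 marked values belonged to replicate 4. It had 13342 transcripts detected at equal depth (next 15963), a mean correlation of 0.806 with its group (next 0.848), and a mean log2(CPM + 1) of 6.57 over the 13 transcripts with a higher step in the immediate challenge (next 6.9). In Cu0h-1h all 4 belonged to replicate 1. It had 5.65% of counts on its most abundant transcript (next 3.06%), a mean correlation of 0.81 with its group (next 0.839), 365 CPM of ENSIPUT00000020891 (next 166 CPM), and a mean log2(CPM + 1) of 4.42 over the transcripts that rose in Cu24h-4h against Cu24h-1h (next 5.73). The cause of these values was not tested.

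The step from 1 to 4 h differed between the immediate and the later challenge for 37 transcripts by edgeR's test of the difference with Benjamini-Hochberg adjustment, 13 with a higher and 24 with a lower step in the immediate challenge.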

How the results depend on the processing

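The count of DEGs in Cu0h-4h against Cu0h-1h was 0 with DESeq2's size factors, the older method and FDR alone, 25 with DESeq2, 63 without a filter, 69 with all 9 groups, 1 with the replicate block, 1 with limma-voom, 5 without both fish that stood apart and 0 to 2 with 1 fish left out. All 4 named transcripts kept their direction in each setting tried and were called by DESeq2, without a filter and with all 9 groups. In Cu24h-4h against Cu24h-1h the count was 479 without a filter, 50 with all 9 groups, 39 with limma-voom and 76 to 130 with 1 fish left out. In Cu0h-24h against Cu0h-4h it was 444 without a filter, 184 with all 9 groups, 64 with the block and 70 to 138 with 1 fish left out. For the difference between the steps it was 83 with DESeq2, 74 without a filter (where the median over all transcripts moved to -0.15) and 20 with the older method. It was 22 with the block, 30 with limma-voom, 82 without both fish that stood apart and 22 to 73 with 1 fish left out. The share of the 100 most abundant transcripts changed sign without Cu0h-4h replicate 4, and its difference ran from -0.0233 to 2.56 points with 1 fish left out. Transcripts detected differed by -846 to -63 with 1 fish left out. The cause of these changes was not tested. Same-numbered fish correlated at -0.09 to 0.16 in their deviations, and 1 of 6 pairs lay over 0.1. Of 12 fish, 3 correlated best with their own number. These values showed no clear pairing by replicate number, but 6 pairs are too few to decide. No source used here states what the numbers mark. Of the 8567 approximate intervals, 5704 reached past 1 or -1 on the log2 scale.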
